A study of Mus musculus with 3 samples.

Results

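Hmox1, Gdf15, Nqo1, Gclm, Srxn1, Txnrd1, Prdx1 and Nfe2l2 are genes of the oxidative stress response and its neighbours. They were followed here through mouse abdominal skin at 3 reproductive stages, as 8 of the 28693 genes in the deposited count matrices. The 8 were listed because their levels in these same libraries differed between stages or cell classes, so their levels below are a description and carry no test. Unique molecular identifiers (UMIs, 1 per captured transcript) of each symbol were summed over barcodes in which 200 or more genes were seen and no more than 10% of UMIs were mitochondrial.

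The skin came from C57BL/6 mice of genotype Col1a2creERT2; R26H2B EGFP, aged 8 to 12 weeks, in which tamoxifen-activated Cre driven by Col1a2, a collagen gene of fibroblasts, acts on an EGFP reporter. All groups therefore carry the transgenes and received tamoxifen. One library was made at gestation day 16 (dpc16) and another at postpartum day 42 (dpp42), with tamoxifen given during pregnancy. The control library came from non-pregnant skin (NP), sampled 48 days after 3 days of tamoxifen. The number of mice behind a library is not given in the sources used here. Cells were captured on a 10x Chromium, which counts the 3′ ends of transcripts, after 30 min of skin digestion in 0.25% trypsin. With 1 library per stage there are no replicates, stage and library cannot be told apart, and no p-value is given. Each level is in counts per 1000000 UMIs (CPM) with an exact Poisson 95% interval, and each ratio has an exact conditional binomial 95% interval. Both cover counting error only.

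NRF2, the transcription factor made from Nfe2l2, is held low by KEAP1 and released when reactive chemicals modify KEAP1. It then binds antioxidant response elements (AREs) beside small MAF proteins and turns on Gclm, Srxn1, Txnrd1, Nqo1, Prdx1 and Hmox1. Hmox1 encodes haem oxygenase, which breaks haem into biliverdin, iron and carbon monoxide. It is also repressed by the haem sensor BACH1, and macrophages that clear red cells are known for high levels of it. Gdf15 encodes a secreted stress cytokine that is induced by ATF4, CHOP (Ddit3) and p53 and signals through the receptor GFRAL with RET.

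The libraries held 1330 barcodes in NP, 4122 in dpc16 and 1196 in dpp42, with 6031814, 21679047 and 5794940 UMIs. Filtering kept 1289, 3652 and 1081 cells, with median depths of 3119, 4300.5 and 3252 UMIs per cell. Cells were clustered without any of the genes described here, and clusters were named from marker lists. Keratinocyte-like cells made up 75.5% of kept cells in NP, 43.4% in dpc16 and 63.1% in dpp42, although the labels call the cells dermal. Fibroblast-like cells were 99, 1082 and 112, or 7.68, 29.6 and 10.4%. Blood endothelial-like cells numbered 41, 128 and 89, and lymphatic endothelial-like cells 19, 141 and 34. The 62 macrophage-like cells formed cluster 30, all from dpc16, and 375 of the 384 cells of fibroblast cluster 22 were from dpc16 too, so these clusters may be features of that library. Ratios were made only for keratinocyte-like cells, fibroblast-like cells and all kept cells, since no other class had 50 cells in each library. Between 2 and 7 barcodes were shared by each pair of libraries. In the barcodes left out by the filter Hmox1 was 15.9 CPM in NP (2 UMIs) and 43.7 CPM in dpc16.

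Promoter windows are shown because NRF2 is thought to act on the members through one short sequence, the ARE core TGACNNNGC, and the windows show which members hold it beside their start. RefSeq promoter windows (GRCm38.p6, 250 bases before to 50 after a start) were matched for 7 of the 8 members, Hmox1 being the other. In 5 members, Gclm, Srxn1, Txnrd1, Prdx1 and Nfe2l2, the core was found on either strand. Counted by window, the core was in 5 of the members' 10 windows, and it is present in 12.4% of all 32851 windows. In the windows below, written on the gene's own strand, capitals mark the core, which reads TGACNNNGC on the opposite strand. It begins at position -133 of Prdx1, 29 of Srxn1, -134 of Gclm and -92 of the second Txnrd1 window, counted from the start. Gdf15 is shown as a member without it.
Prdx1 chr4:116685349-116685648 (+): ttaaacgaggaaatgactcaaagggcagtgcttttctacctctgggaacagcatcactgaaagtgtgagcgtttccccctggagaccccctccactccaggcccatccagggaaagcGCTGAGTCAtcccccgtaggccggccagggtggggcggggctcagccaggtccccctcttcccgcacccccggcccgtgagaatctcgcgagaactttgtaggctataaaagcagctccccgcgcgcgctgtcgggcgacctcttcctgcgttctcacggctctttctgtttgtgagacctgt
Srxn1 chr2:152105274-152105573 (+): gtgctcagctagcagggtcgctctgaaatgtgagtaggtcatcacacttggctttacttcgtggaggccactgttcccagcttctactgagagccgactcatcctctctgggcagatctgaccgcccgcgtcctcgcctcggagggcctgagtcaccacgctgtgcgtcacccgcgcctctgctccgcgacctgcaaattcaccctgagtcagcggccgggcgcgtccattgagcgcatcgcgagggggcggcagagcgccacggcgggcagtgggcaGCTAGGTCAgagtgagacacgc
Gclm chr3:122245307-122245606 (+): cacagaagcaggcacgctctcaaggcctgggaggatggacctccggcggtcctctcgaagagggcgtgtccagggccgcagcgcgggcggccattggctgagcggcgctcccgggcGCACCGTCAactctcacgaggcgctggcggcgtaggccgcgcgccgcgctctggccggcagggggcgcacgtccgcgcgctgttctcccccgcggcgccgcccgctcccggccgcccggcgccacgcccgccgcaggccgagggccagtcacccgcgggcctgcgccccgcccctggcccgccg
Txnrd1 chr10:82858956-82859255 (+): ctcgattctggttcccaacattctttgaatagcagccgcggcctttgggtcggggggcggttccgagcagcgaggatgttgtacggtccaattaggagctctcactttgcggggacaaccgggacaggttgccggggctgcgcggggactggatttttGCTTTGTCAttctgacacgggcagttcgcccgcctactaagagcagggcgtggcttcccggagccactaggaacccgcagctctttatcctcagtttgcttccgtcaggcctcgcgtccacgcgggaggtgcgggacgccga
Gdf15 chr8:70632407-70632706 (-): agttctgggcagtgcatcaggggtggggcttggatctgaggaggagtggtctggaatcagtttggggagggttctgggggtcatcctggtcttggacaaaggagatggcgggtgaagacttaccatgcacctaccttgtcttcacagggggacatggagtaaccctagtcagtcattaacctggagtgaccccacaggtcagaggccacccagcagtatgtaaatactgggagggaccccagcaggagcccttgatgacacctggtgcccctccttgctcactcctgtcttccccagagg
Srxn1 and Prdx1 also held the AP-1 motif TGANTCA at 2 places each, in Prdx1 once overlapping the core, against 7.81% of all windows. The motif TGATGNAA, which ATF4 with C/EBP factors can bind, was in none of the member windows, Gdf15 included, and in 3.97% of all windows. These are matches of letters, and binding was not measured.

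Hmox1 (chr8:75093621-75100589, + strand, GRCm38) was highest in phagocytes and blood vessels of this skin. Among dpc16 classes its level was 2578 CPM (2365 to 2805) in macrophage-like cells, where 93.5% of cells had a UMI. It was 1808 CPM (1621 to 2010) in the Lyz2-expressing dendritic cluster 11 and 1012 CPM (935 to 1093) in blood endothelial-like cells. Fibroblast-like cells stood at 251 CPM (237 to 266) and dermal papilla and sheath-like cells at 193 CPM (126 to 282), intervals that overlap. Mural-like cells had 98.0 CPM (52.2 to 168), T, NK and innate lymphoid-like cells 56.7 CPM (22.8 to 117) and lymphatic endothelial-like cells 55.6 CPM (39.9 to 75.5), and these neighbours also overlap. Few cells held these UMIs, a spread the intervals do not cover. The top 3 cells held 10 of 13 UMIs in mural-like and 18 of 26 in dermal papilla and sheath-like cells. The top cell held 5 of 7 in T, NK and innate lymphoid-like and 13 of 41 in lymphatic endothelial-like cells. Keratinocyte-like cells had 37.7 CPM (34 to 41.7), an interval that overlaps that of the lymphatic endothelium. Within the antigen-presenting cells, Cd207-expressing cluster 27 had 44.0 CPM (21.1 to 80.9), so dendritic cluster 11 and the Langerhans-type cluster lay far apart.

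**Figure D1:**
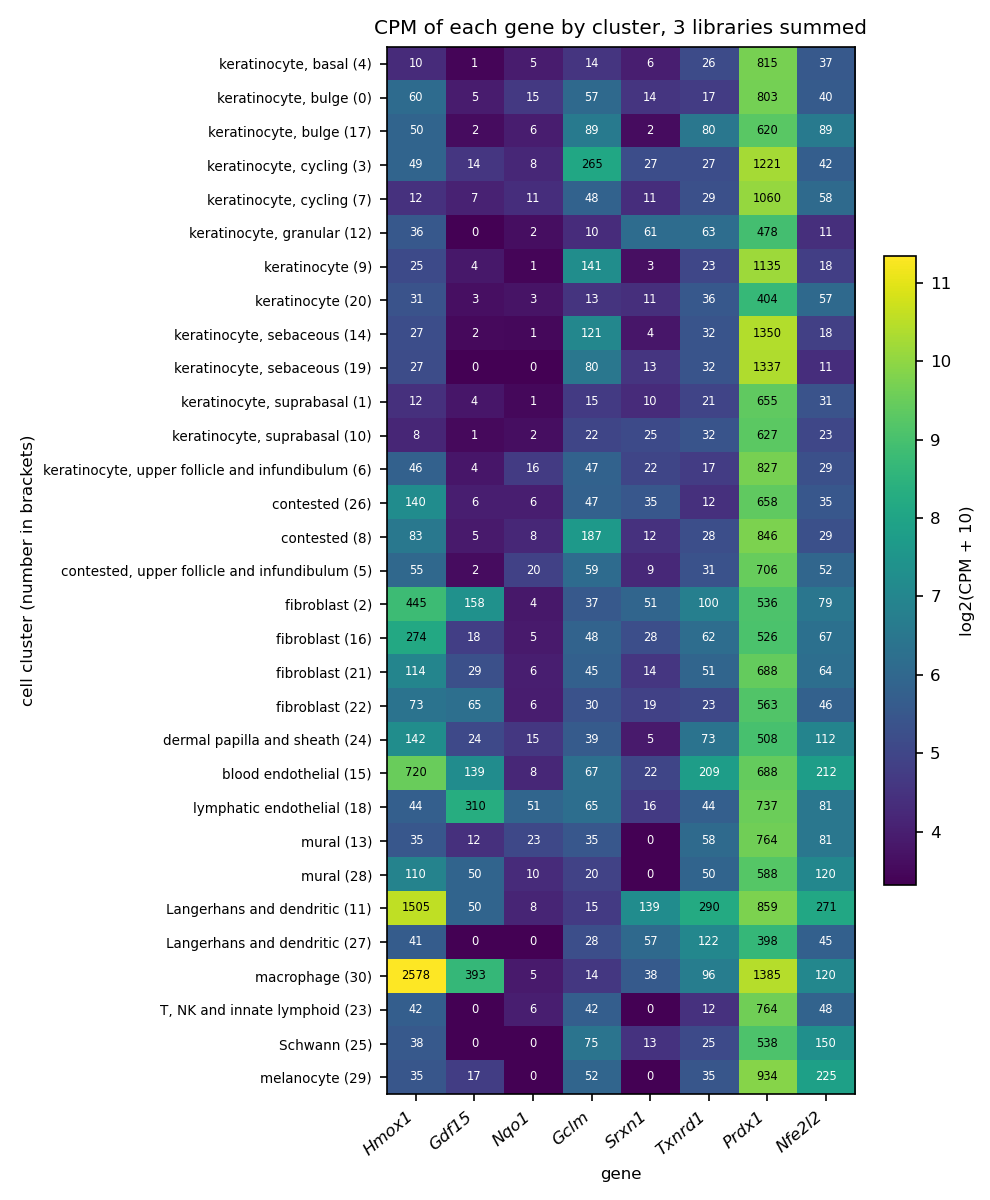
Level of each of the 8 genes (columns) in each of the 31 clusters (rows), the 3 libraries summed, with colour giving log2(CPM + 10). Hmox1 is highest in the macrophage, dendritic and blood endothelial clusters, Gclm in cycling cluster 3 at 265 CPM, and Srxn1 in granular cluster 12 at 61.4 CPM among the keratinocyte clusters.

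Over the stages, Hmox1 in all kept cells was 44.4 CPM in NP, 173 CPM in dpc16 and 27.1 CPM in dpp42. The dpc16 level was 3.90 times that of NP (3.44 to 4.44) and the dpp42 level 0.610 times (0.495 to 0.749). The mix of classes also differed, with a larger share of fibroblast-like cells in dpc16. With the class levels of NP in the class mix of dpc16, the total came to 143 CPM, with the dpc16 level used for macrophages, a class NP did not have. With the class levels of dpc16 in the mix of NP, it came to 80.0 CPM. The part of the mix in the stage difference was not tested further.

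Blood endothelial-like cells had 430 CPM (321 to 564) in NP, 1012 CPM in dpc16 and 239 CPM (188 to 300) in dpp42, and the 3 intervals do not overlap. In NP, 23 of the 52 UMIs came from 1 cell. Haemoglobin transcripts in these cells went another way, with 8.27, 621 and 6688 CPM in the order of the stages, and their part in the Hmox1 levels was not tested. Dendritic cluster 11 had 731 CPM (497 to 1037), 1808 CPM and 622 CPM (362 to 995), highest in dpc16, over only 10, 38 and 8 cells. In the whole Langerhans and dendritic class 3 cells held all 31 UMIs in NP, 19 of them in 1 cell, and 3 cells all 17 in dpp42, 12 of them in 1 cell, a spread the intervals do not cover. Lymphatic endothelial-like cells had 0 of 19 cells with a UMI in NP, a level of up to 55.3 CPM, and 6.6 CPM from 1 UMI in dpp42.

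Fibroblast-like cells kept a high Hmox1 level in dpc16 and had little in dpp42. They had 318 CPM (255 to 391; 88 UMIs) in NP, 251 CPM (1204 UMIs) in dpc16 and 23.9 CPM (9.60 to 49.2; 7 UMIs) in dpp42. The dpp42 level was 13.3-fold lower than that of NP (6.19 to 34.1) and lower in 3 of the 3 fibroblast clusters shared by both. Weighting those clusters equally gave a ratio of 0.176. In NP, 3 of the 99 cells held 39 of the 88 UMIs, a spread the intervals do not cover. The dpc16 level was 0.791 times that of NP (0.637 to 0.993), and here the direction depended on which clusters were counted and how they were weighted. Cluster 2, led by Gpx3, Ccl2 and Tnfaip6, had 527, 449 and 96.0 CPM over the stages. Cluster 16, led by the matrix genes Mfap4, Mgp and Eln, had 147, 296 and 28.0 CPM. Cluster 21, led by Mmp3 and Igfbp2, had 29.8, 153 and 0 CPM, and the dpc16 cluster 22, led by Klk1b24, Klk1 and Col1a1, had 74.4 CPM. Equal weights for the shared clusters turned the ratio of dpc16 to NP to 1.28, leaving out cluster 22 turned it to 1.04, and leaving out clusters 2 and 22 turned it to 2.98. Clusters 16 and 21 held only 19 and 26 cells in NP, and these ratios are given without intervals, so the direction stays uncertain. Markers of other cells moved with the stages as well. The 9 macrophage markers summed to 28.9, 56.5 and 10.2 CPM in fibroblast-like cells, 7 Langerhans and dendritic markers to 137, 148 and 51.1 CPM with 4, 6 and 4 of the 7 detected, and haemoglobin to 3.61, 468 and 20.5 CPM, and their part was not tested.

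**Figure D2:**
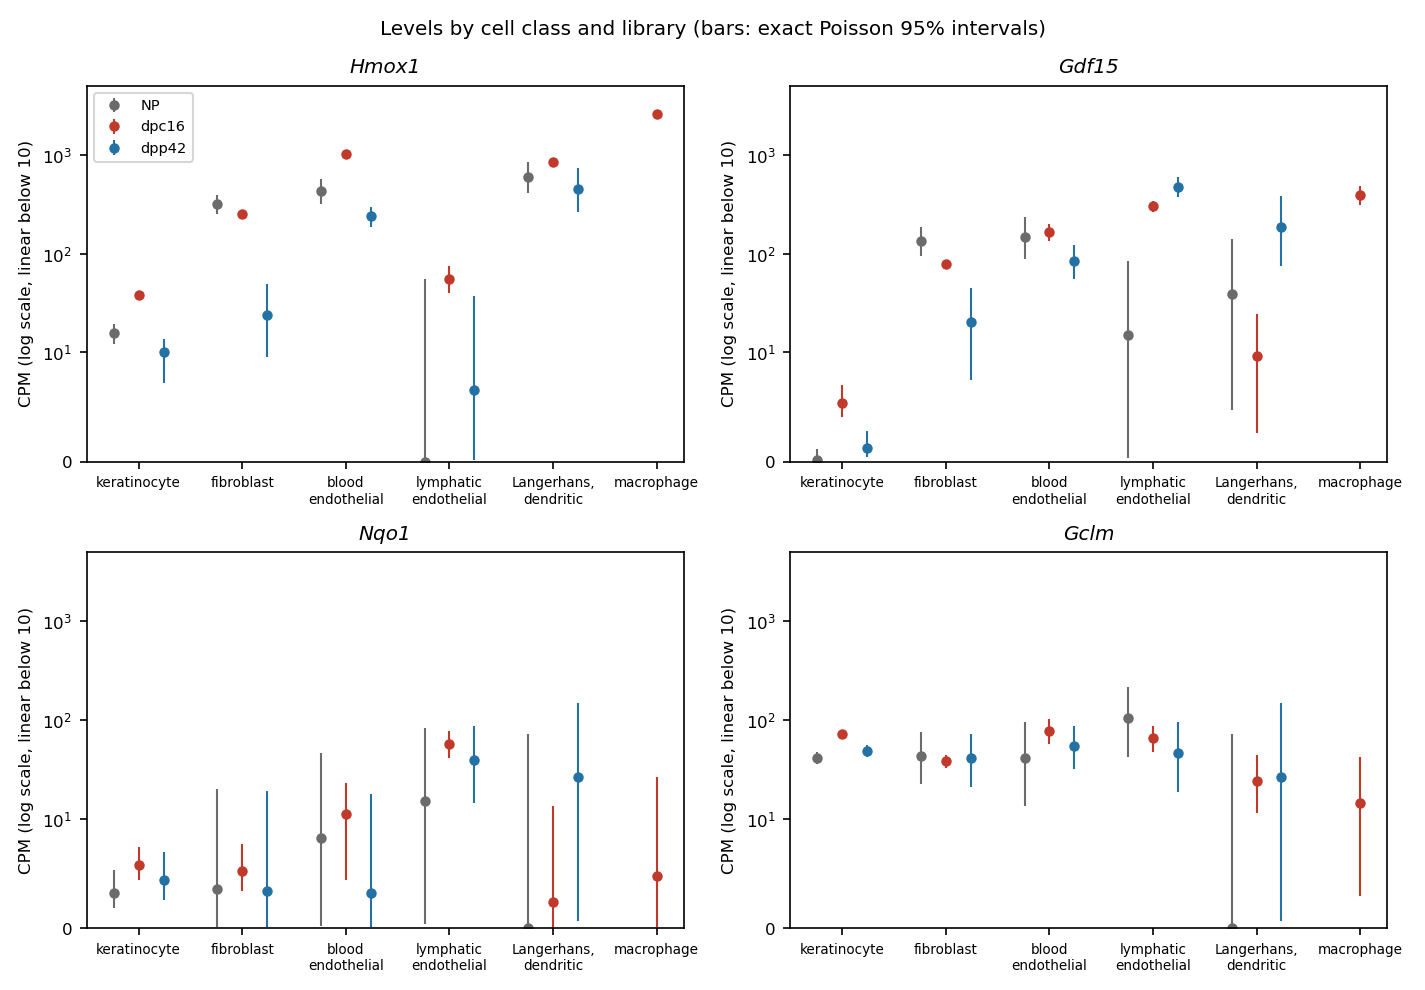
Levels of Hmox1, Gdf15, Nqo1 and Gclm in 6 cell classes, in CPM on an axis that is logarithmic above 10 and linear below, with 1 point per library and bars for exact Poisson 95% intervals. Hmox1 in fibroblast-like cells is 23.9 CPM in dpp42 against 318 CPM in NP, and Gdf15 in lymphatic endothelial-like cells is 475 CPM in dpp42 and 303 CPM in dpc16, against 15 CPM in NP.

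Keratinocyte-like cells had low Hmox1 with a higher level in dpc16. The values were 15.5 CPM (12.2 to 19.4; 76 UMIs) in NP, 37.7 CPM (385 UMIs) in dpc16 and 9.98 CPM (7.16 to 13.5; 41 UMIs) in dpp42. The ratio of dpc16 to NP was 2.43 (1.90 to 3.15), and that of dpp42 to NP 0.644 (0.429 to 0.953), which was 0.888 in cells with at most 5% mitochondrial UMIs and 0.713 with cells thinned to 1000 UMIs. Shares of cells with a UMI were 5.65, 13.6 and 4.84%. With each cell thinned to 1000 UMIs they were 1.44, 3.6 and 1.17%, far below the 74.2% of dpc16 macrophage-like cells. Among the follicle's bulge clusters, cluster 0 had 9.05, 79.3 and 29.6 CPM over the stages and cluster 17 had 14.1, 93.1 and 13.9 CPM, while in cycling cluster 3 the values were 40.1, 60.8 and 0 CPM. Over the 13 keratinocyte clusters shared with NP, dpc16 was higher in 10, and weighting them equally gave 1.55.

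Transcripts of other cells differed between the same keratinocyte-like cells. The 9 macrophage markers summed to 4.08, 29.4 and 4.14 CPM, with 6, 9 and 6 of the 9 genes detected, and 7 Langerhans and dendritic markers to 26.7, 72.1 and 24.1 CPM. There 8 fibroblast markers summed to 124, 860 and 186 CPM and haemoglobin to 133, 412 and 131 CPM. In dpc16 keratinocyte-like cells there were 162 Hmox1 UMIs per 100 UMIs of 5 macrophage genes, against 13.1 in dpc16 macrophage-like cells. The same ratio was 860 in dpc16 fibroblast-like cells, so it cannot tell the source of these UMIs. The 5 genes had 238 UMIs in these keratinocyte-like cells and 9 each in NP and dpp42, too few for such a ratio. The mitochondrial share of the cells also moved with the gene, differently by library. In dpc16 keratinocyte-like cells Hmox1 was 21.9, 28.2 and 56.3 CPM in cells with up to 2.5%, 2.5 to 5% and 5 to 10% mitochondrial UMIs, and in NP 13.9, 12.7 and 24.8 CPM. In dpp42 they were 10.1, 12.3 and 6.82 CPM, lowest in the highest range, with overlapping intervals. In dpc16 fibroblast-like cells the order was 421, 167 and 159 CPM. The lowest range held 24 of 99 fibroblast-like cells in NP and 6 of 112 in dpp42. The part of depth, free RNA and cell quality in these levels was not tested.

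Hmox1 UMIs were held by few cells. The 5% of cells with the most held 84.4% of all Hmox1 UMIs in NP, 66.5% in dpc16 and 85.0% in dpp42. By class, fibroblast-like cells supplied 33.6, 35.3 and 4.76% of each library's Hmox1 UMIs and keratinocyte-like cells 29.0, 11.3 and 27.9%. Blood endothelial-like cells supplied 19.8, 18.7 and 50.3%, and macrophage-like cells 15.8% in dpc16. The blood endothelium thus supplied the largest share in dpp42 and fibroblast-like cells in dpc16, while in NP fibroblast-like and keratinocyte-like cells gave 88 and 76 UMIs.

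**Figure D3:**
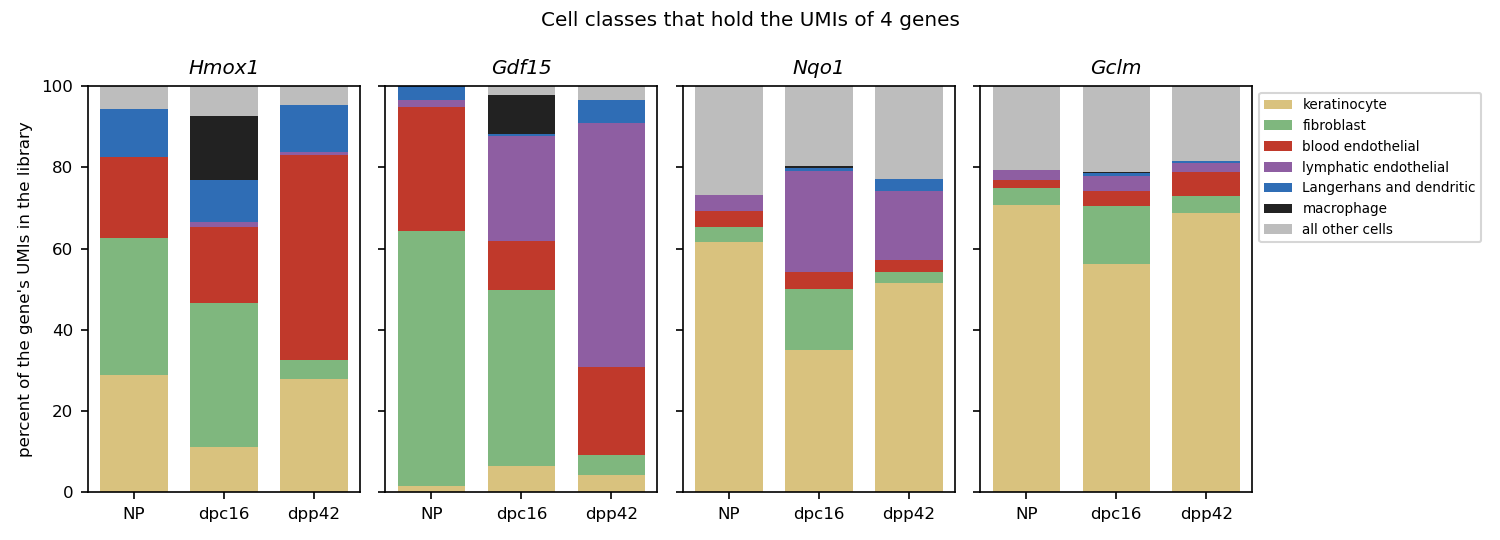
Stacked bars of the percent of each library's UMIs of Hmox1, Gdf15, Nqo1 and Gclm that came from each cell class, with 1 bar per library and gene. Fibroblast-like cells hold 62.7% of Gdf15 UMIs in NP, 43.5% in dpc16 and 5.0% in dpp42, where lymphatic endothelial-like cells hold 60.0%.

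Gdf15 (chr8:70629393-70632456, - strand) was found in fibroblast-like, endothelial and macrophage-like cells and hardly in keratinocyte-like cells. Its level in all kept cells was 9.99 CPM (7.61 to 12.9; 59 UMIs) in NP, 43.7 CPM (40.9 to 46.8; 862 UMIs) in dpc16 and 22.1 CPM (18.3 to 26.4; 120 UMIs) in dpp42. Against NP, dpc16 stood at a ratio of 4.38 (3.36 to 5.80) and dpp42 at 2.21 (1.61 to 3.07). In dpp42, 3 lymphatic endothelial-like cells held 59 of the 120 UMIs. The class levels of NP in the mix of dpc16, again with the dpc16 level for macrophages, gave 42.9 CPM, and the levels of dpc16 in the mix of NP gave 15.7 CPM, above the 9.99 CPM of NP. Within fibroblast-like cells the direction was the other way. There Gdf15 had 134 CPM (94.0 to 184) in NP, 78.2 CPM (70.5 to 86.6) in dpc16 and 20.5 CPM (7.51 to 44.5) in dpp42. Against NP, dpc16 stood at 0.586 (0.417 to 0.845) and dpp42, with 6 UMIs, at 0.153 (0.053 to 0.366). Of the 37 UMIs in NP, 17 came from 3 cells. Thinning each cell to 1000 UMIs brought the dpc16 ratio to 0.905, and leaving out clusters 2 and 22 brought it to 0.269.

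Lymphatic endothelial-like cells had 1 Gdf15 UMI in NP, a level of 15 CPM (0.379 to 83.5), 303 CPM (264 to 345; 223 UMIs) in dpc16 and 475 CPM (372 to 598; 72 UMIs) in dpp42. A UMI was seen in 1 of 19, 32 of 141 and 6 of 34 cells. Few cells carried these sums: the top cell held 61 of the 223 UMIs in dpc16 and 27 of the 72 in dpp42, and the top 3 cells in dpp42 held 81.9%. Macrophage-like cells of dpc16 had 393 CPM (312 to 488), and blood endothelial-like cells 149 CPM (88.2 to 235), 164 CPM (134 to 199) and 84.0 CPM (54.9 to 123) over the stages, overlapping in NP and dpc16 and in NP and dpp42. In keratinocyte-like cells 1, 55 and 5 UMIs were counted. For the receptor, Gfral had 0 UMIs in each library and its co-receptor Ret 6, 34 and 9.

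Gclm (chr3:122245557-122270732, + strand), the modifier subunit of the enzyme that starts glutathione synthesis, was high in one cycling and one sebaceous keratinocyte cluster, among others. Cycling cluster 3 had 361 CPM in NP, 243 CPM in dpc16 and 253 CPM in dpp42, and clusters 9 (led by Bex1 and Plin2) and 14 (sebaceous) had between 115 and 149 CPM in every library. The unnamed cluster 8, led by Steap4, had 247, 178 and 185 CPM over the stages. Basal cluster 4 had 13.6 CPM, suprabasal cluster 1 15.4 CPM and granular cluster 12 10.1 CPM with the libraries summed. Keratinocyte-like cells as a whole had 41.0 CPM (35.5 to 47.1) in NP, 72.1 CPM (67.0 to 77.5) in dpc16 and 48.9 CPM (42.4 to 56.2) in dpp42. The ratio of dpc16 to NP was 1.76 (1.5 to 2.07), and 1.16 when the 13 shared clusters weighed equally, with dpc16 higher in 11 of them. Gclm was higher in keratinocyte-like cells with more mitochondrial UMIs in all 3 libraries, at 22.2, 34.4 and 88.0 CPM over the 3 ranges in NP, 29.2, 57.7 and 110 CPM in dpc16 and 33.2, 36.4 and 73.0 CPM in dpp42. Fibroblast-like cells had 43.3, 38.4 and 40.9 CPM.

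Srxn1 (chr2:152105516-152111376, + strand) encodes sulfiredoxin, which restores overoxidised peroxiredoxins. Granular keratinocyte cluster 12 had 99.9, 54.6 and 47.9 CPM over the stages, from only 13, 15 and 18 cells. Dendritic cluster 11 had 70.7 CPM in NP, 170 CPM (116 to 239) in dpc16 and 36.6 CPM in dpp42. The whole Langerhans and dendritic class held only 3 Srxn1 UMIs in NP and 1 in dpp42, too few to order the stages. The keratinocyte-like total was 13.7, 17.2 and 10.5 CPM, and 1 cell held 14 of its 67 UMIs in NP and 13 of 43 in dpp42. Fibroblast-like cells had 57.7, 30.0 and 10.2 CPM of Srxn1. The ratio of dpc16 to NP there was 0.520 (0.310 to 0.935), but 0.95 without clusters 2 and 22 and 0.244 with cells thinned to 1000 UMIs. Nqo1 (chr8:107388225-107403206, - strand), a quinone reductase, was scarce, with 26, 168 and 35 UMIs or 4.4, 8.52 and 6.44 CPM. Lymphatic endothelial-like cells had 57.0 CPM (41.1 to 77) of it in dpc16 and held 25% of that library's Nqo1 UMIs, and no cell had more than 3. Nqo1 passed the minimum level in neither keratinocyte-like nor fibroblast-like cells.

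Txnrd1 (chr10:82833951-82897712, + strand) encodes cytosolic thioredoxin reductase. It was lower in dpc16 than in NP in both large classes, the reverse of Hmox1 in keratinocyte-like cells. Fibroblast-like cells had 217 CPM (165 to 279) in NP, 50.9 CPM (44.7 to 57.7) in dpc16 and 75 CPM (47.0 to 114) in dpp42. The dpc16 ratio to NP was 0.235 (0.177 to 0.317) and the dpp42 ratio 0.346 (0.202 to 0.573), and with cells thinned to 1000 UMIs they were 0.354 and 0.648. All 3 shared clusters were lower in dpc16, with 79.5 against 270 CPM in cluster 2, 56.7 against 183 CPM in cluster 16 and 43.9 against 134 CPM in cluster 21. Keratinocyte-like cells had 40.0, 24.6 and 37.0 CPM, a ratio of dpc16 to NP of 0.615 (0.508 to 0.745) with 11 of 13 shared clusters lower. That ratio was 0.751 with each cell thinned to 1000 UMIs. Gclm and Txnrd1 differed between dpc16 and NP in opposite directions in the keratinocyte-like sums. The Gclm ratio in fibroblast-like cells was 0.886 (0.495 to 1.75), with 12 UMIs in NP, which leaves its direction open. Blood endothelial-like cells had 207, 187 and 255 CPM of Txnrd1.

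Prdx1 (chr4:116685544-116700822, + strand), a peroxiredoxin that reduces peroxides with thioredoxin, stayed within 1.5-fold between the stages in both large classes. It had 931, 785 and 836 CPM in keratinocyte-like cells and 671, 559 and 576 CPM in fibroblast-like cells. Its range over cell types was wider, with 1385 CPM (1230 to 1554) in dpc16 macrophage-like cells and 1653, 1275 and 1358 CPM in sebaceous cluster 14, but 404 CPM in keratinocyte cluster 20, led by Serpinb2, Fosl1 and Krt16, and 478 CPM in granular cluster 12 with libraries summed. Nfe2l2 (chr2:75675513-75704641, - strand), the gene of NRF2 itself, had 31.8, 34.6 and 30.9 CPM in keratinocyte-like cells. In fibroblast-like cells it had 108, 60.3 and 85.2 CPM, a ratio of dpc16 to NP of 0.557 (0.382 to 0.840), but 0.700 with the shared clusters weighted equally. Its higher levels were in dendritic cluster 11, with 212, 297 and 183 CPM, and in blood endothelial-like cells, with 190, 185 and 275 CPM. NRF2 is regulated mainly as a protein, which was not measured.

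A gene counted as past 1.5-fold where its ratio reached 1.5 in either direction and it was measured, with at least 10 CPM in one of the libraries and 20 UMIs over both. In all kept cells 2 of 7 members, Hmox1 and Gdf15, were higher in dpc16 than in NP, against 35.8% of genes past the fold either way and 14.6% higher. Between dpp42 and NP, Gdf15 was higher, with 59 of its 120 UMIs in 3 cells and lower in fibroblast-like cells, against 7.66% of genes, and Hmox1 lower, against 2.69%. In keratinocyte-like cells 3 of 6 measured members were past it between dpc16 and NP, Hmox1 and Gclm higher and Txnrd1 lower, against 30.1% of all 7914 genes. Between dpp42 and NP it was 1 of 6, Hmox1, lower, against 8.26% either way, 5.11% higher and 3.15% lower. In fibroblast-like cells 4 of 7 members, Gdf15, Srxn1, Txnrd1 and Nfe2l2, were lower in dpc16 than in NP, against 52.9% of genes past the fold in either direction and 32.5% lower. Hmox1, Gdf15 and Txnrd1, 3 of 6, were lower in dpp42 than in NP, against 36.2% either way and 13.9% lower. The members' median log2 ratio in fibroblast-like cells was -0.79 for dpc16 and -0.92 for dpp42, beside -0.30 and 0.08 over all genes. Since the members were chosen on these libraries, the counts describe them and show nothing more. Both comparisons share the NP library.

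Set against dpc16, dpp42 was lower in Hmox1 in both classes. The ratio was 0.265 (0.187 to 0.366) in keratinocyte-like cells, or 0.449 with at most 5% mitochondrial UMIs, and 0.095 (0.038 to 0.196) in fibroblast-like cells, where Gdf15 was also lower at 0.262 (0.095 to 0.575). Without clusters 2 and 22 the fibroblast ratios were 0.036 for Hmox1 and 0.663 for Gdf15. Srxn1 was lower as well, at 0.607 (0.425 to 0.852) and 0.341 (0.069 to 1.02), and Txnrd1 was higher in keratinocyte-like cells at 1.51 (1.22 to 1.85). In each class 3 members were past the fold, of 6 measured in keratinocyte-like and 7 in fibroblast-like cells, against 29.9% and 54.4% of all genes, with 8.53% and 12.9% lower. The Srxn1 value in dpp42 fibroblast-like cells rests on 3 UMIs. With cells thinned to 1000 UMIs the keratinocyte ratios of Srxn1 and Txnrd1 turned to 1.01 and 0.95.

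**Figure D4:**
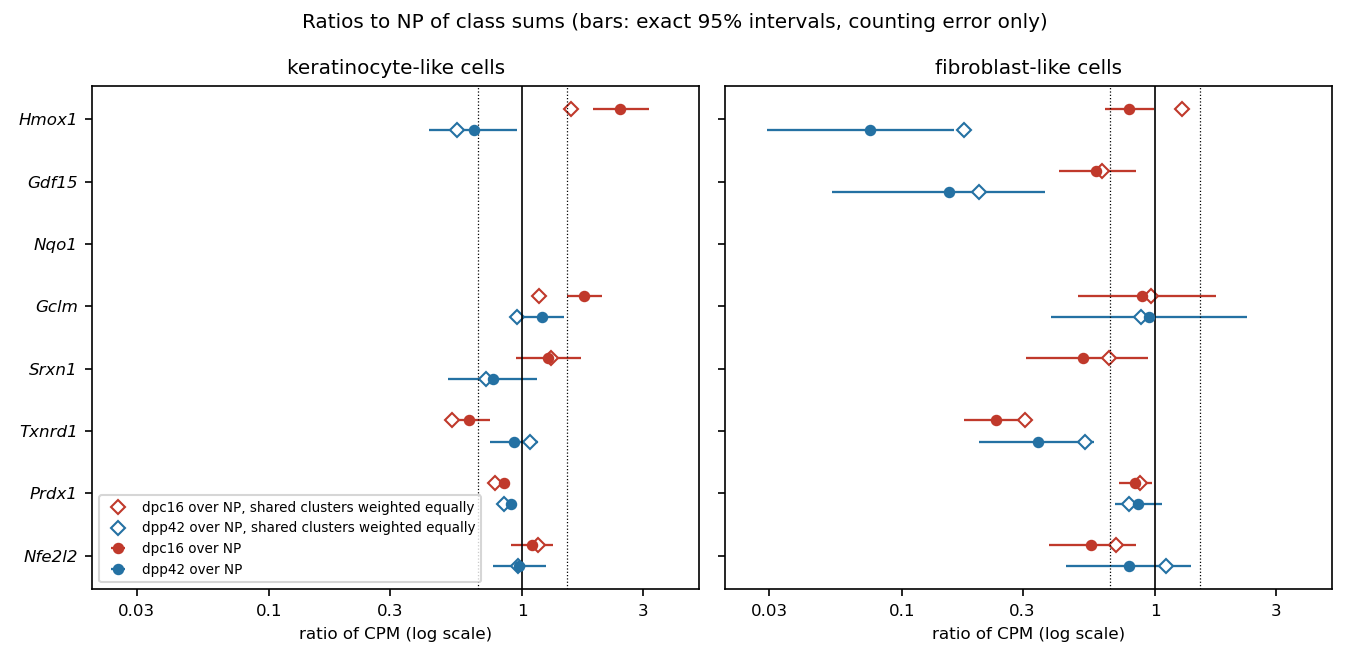
Ratio to NP of each measured member in keratinocyte-like and fibroblast-like cells, on a logarithmic axis, with filled points for the class sums and exact 95% intervals (counting error only) and open diamonds for shared clusters weighted equally. Red is dpc16 over NP, blue is dpp42 over NP, and dotted lines mark 1.5-fold. In fibroblast-like cells Txnrd1 stands at 0.235 in dpc16 and Hmox1 at 0.075 in dpp42. In keratinocyte-like cells Gclm moves to 1.16 for dpc16 once clusters weigh equally.

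The wider pathways were read from gene lists, with each list's count past 1.5-fold. In keratinocyte-like cells of dpc16 against NP, the stress regulators upstream of Gdf15 had 4 of 9 measured genes higher and none lower, with a median log2 ratio of 0.47 beside -0.14 over all genes, of which 9.39% were higher. The leading ones were Atf3, a stress transcription factor, at 1662 against 881 CPM (ratio 1.89, 1.82 to 1.95), Ppp1r15a, which reverses the translation block of the integrated stress response, at 245 against 135 CPM, and Ddit3, at 73.6 against 43.5 CPM. The count was also 4 with shared clusters weighted equally. Gdf15 itself had 55 against 1 UMIs in these cells, or 5.39 against 0.204 CPM, below the minimum level for a ratio. A link to these regulators was not tested. Keratinocyte-like dpp42 cells differed, with Atf3 at 572 against 881 CPM in NP (0.650, 0.617 to 0.683) the 1 gene of 9 past the fold. With shared clusters weighted equally that ratio was 0.764.

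In 5 of the other 7 lists in keratinocyte-like cells, fewer genes were past the fold once shared clusters weighed equally. Of all genes in dpc16 against NP, 9.39% were higher and 20.7% lower, or 6.70% and 17.3% with equal weights. Glutathione genes had 3 of 5 higher in dpc16 than in NP, among them Gclc, the catalytic partner of Gclm, at 63.7 against 33.3 CPM and the cystine carrier subunit Slc3a2 at 186 against 97.5 CPM. Superoxide and peroxide removal had 4 of 7 higher and 1 lower, with Gpx4, which reduces lipid peroxides, at 741 against 423 CPM and Gpx1 at 348 against 578 CPM. Weighted equally over shared clusters, 1 of 5 and 2 of 7 were higher, with Gclc at 1.26, Gpx4 at 1.22 and Gpx1 at 0.734. For haem and iron 2 of 7 genes were higher, namely the transferrin receptor Tfrc at 115 against 46.9 CPM (2.44, 2.12 to 2.83) and the ferritin light chain Ftl1 at 760 against 361 CPM (2.10, 2.0 to 2.21), and 1 of 7, Ftl1, remained with equal weights, where Tfrc was at 1.49. Conjugation genes had 6 higher and 3 lower of 13, with Aldh3a1 at 58.7 against 25.7 CPM and Cbr1 at 36.6 against 75.1 CPM. NRF2 regulators had Maff higher and Rbx1 lower of 10, NADPH genes Idh1 higher of 6, and the thioredoxin list none of 8. With equal weights Idh1 turned to 0.873 and 0 of 10 NRF2 regulators were past the fold. In dpp42 against NP, 0 of 10 NRF2 regulators, 0 of 5 glutathione, 0 of 8 thioredoxin and 0 of 8 haem genes were past the fold, with 1 of 6 NADPH genes and 1 of 6 peroxide genes higher and 1 conjugation gene of 14 on each side. Of all genes in that comparison 5.11% were higher and 3.15% lower.

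In fibroblast-like cells of dpc16 the thioredoxin list had 4 of 9 genes higher than in NP and none lower, beside Txnrd1 at 0.235. Prdx6, a peroxiredoxin that acts on phospholipids, had 568 against 152 CPM (3.75, 2.77 to 5.22), and Txnip, the thioredoxin inhibitor, 418 against 173 CPM. The counts were again 4 and 0 with equal weights for shared clusters. Of all genes in this comparison 20.4% were higher and 32.5% lower. Gpx3, a secreted peroxidase, had 1330 against 433 CPM (3.07, 2.56 to 3.71), while the mitochondrial superoxide dismutase Sod2 had 110 against 256 CPM. Conjugation had 5 of 10 higher and 2 lower, and haem and iron 2 of 7 higher, among them the haem carrier Slc48a1 at 114 against 39.7 CPM. Lower genes outnumbered higher ones among NRF2 regulators, with 4 lower and 1 higher of 10, glutathione genes, with 4 lower and 1 higher of 5, and stress regulators, with 4 of 9 lower. With equal weights these became 3 lower and 1 higher of 10, 2 lower and 1 higher of 5, and 2 of 9 lower, beside 32.0% lower over all genes. Cul3, which with KEAP1 marks NRF2 for breakdown, stood at 0.491 (0.315 to 0.803), and Cdkn1a, a p53 target, at 327 against 639 CPM. No NADPH gene of 5 was past the fold.

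Fibroblast-like cells of dpp42 had 5 of 8 stress regulators lower than NP and 0 higher. Their median log2 ratio was -0.73, and of all genes 13.9% were lower and 22.3% higher. Egr1 had 658 against 1404 CPM (0.469, 0.392 to 0.558), Ddit3 stood at 0.429 (0.217 to 0.813) and Cdkn1a at 331 against 639 CPM. Gpx3 had 113 against 433 CPM (0.260, 0.171 to 0.385) and Ftl1 2107 against 3941 CPM. The thioredoxin list had 3 of 8 genes higher and 0 lower, with Txnip at 508 against 173 CPM. Another of them, Prdx3, had 15 against 9 UMIs, with an interval of 0.646 to 4.08. NRF2 regulators had 2 of 8 lower, glutathione genes 2 of 2 lower, peroxide removal 2 of 7 lower, haem and iron and conjugation an equal number on each side (1 and 1 of 4, 2 and 2 of 7), and NADPH 1 of 5 higher. With shared clusters weighted equally, 4 of 8 stress regulators were lower, 0 of 8 NRF2 regulators, 1 of 2 glutathione genes and 1 of 7 of peroxide removal, beside 14.7% of all genes. The glutathione count had included Gclc on 9 UMIs in dpp42 and 15 in NP. The ratios of Cdkn1a, Gpx3 and Txnip were then 0.731, 0.519 and 1.88.

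Detection of other members beside Hmox1 in the same cell was read in dpc16, each cell thinned to 1000 UMIs. Among Langerhans and dendritic-like cells, Srxn1 was found in 8 of 24 cells with an Hmox1 UMI (33.3%, exact 95% interval 15.6 to 55.3) and in 3 of 53 without (5.66%, 1.18 to 15.7), over clusters 11 and 27 together. In blood endothelial-like cells Txnrd1 was found in 12 of 49 with (24.5%, 13.3 to 38.9) and 6 of 79 without (7.59%, 2.84 to 15.8). In fibroblast-like cells it was found in 18 of 154 with (11.7%, 7.08 to 17.8) and 38 of 928 without (4.09%, 2.91 to 5.58), and Prdx1 in 44.8% and 42.9%. Other classes showed no such split. In macrophage-like cells Txnrd1 was found in 5 of 46 with (10.9%) and 2 of 16 without (12.5%). In keratinocyte-like cells it was found in 3.51% with and 2.69% without, and the intervals overlap in both classes. These examples were chosen after their values were seen, and the cells of a class share 1 library.

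The genes most like Hmox1 in pattern, by Pearson r of log2(CPM + 10) over the 11 sums of class by library with at least 50 cells, were the chemokine Cxcl2 (r = 0.95), Tubb6 (0.948), Litaf (0.944), Rap1b (0.938) and Ube2f (0.926). For Gdf15 they were Ifitm2 (0.926), Rab13 (0.925), Tln1 (0.909), Anxa6 (0.906) and Rnf19b (0.900). These sums share libraries and classes, and r is a description over 5449 genes compared.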

How the data were processed

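Abdominal skin was profiled in 3 single-cell libraries, NP, dpc16 and dpp42, each 1 sample. UMI counts, whole numbers for each gene and barcode, were deposited by the authors, who made them with Cell Ranger 2.2.0 on mm10 (GRCm38), per the submitters' processing notes. The counts are not normalized. Annotation release and cell calling: not given in the sources used here. Wet-lab steps are per the labels' protocols.

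Cells with at least 200 genes and at most 10% mitochondrial UMIs were kept, which left out 41, 470 and 115 barcodes (3.08, 11.4 and 9.62%). The kept 1289, 3652 and 1081 cells compare with 1289, 3650 and 1081 stated by the submitters. No doublet caller was run and no doublets were removed. Cells were clustered with scanpy 1.11.5 (10000 counts per cell, log1p, 2000 genes chosen for variability within libraries, all list genes left out, 30 principal components, 15 neighbours, Leiden with igraph 0.11.9 at resolution 1). The 31 clusters were named "-like" by the marker list, of 17, with the highest mean log2 enrichment over the 25th percentile of clusters (20 CPM added), given 3 markers in 10% of cells at 2-fold. A cluster with more markers of another list among its 10 leading genes was left contested (clusters 5, 8 and 26; 114, 469 and 122 cells). Keratinocyte sub-names also needed 1 of their markers among the 10 leading genes. This naming rule was settled after the clusters were seen, and cluster 11 was separated from cluster 27 by its leading genes.

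UMIs were summed per class and library and divided by total UMIs (CPM). Intervals are exact Poisson for levels, exact conditional binomial for ratios and Clopper-Pearson for shares, all at 95%. Only the ratio intervals were run on simulated data, drawn as independent counts. Such draws do not hold UMIs concentrated in few cells, so they cannot show coverage for that spread. Median log2 ratios had 0.5 UMI added. The members and lists were chosen with earlier results of these data known. Named list genes were drawn from up to 3 highest and 3 lowest genes of each list past 1.5-fold with at least 50 CPM, and those printed were chosen among them after their values were seen. ARE, AP-1 and ATF4-type motifs were searched on both strands of RefSeq windows. Alternatives were a 5% mitochondrial limit, thinning, equal weight per cell or per shared cluster, other scalings and denominators, other clusterings and no minimum level. Tools were Python 3.11.15, numpy 2.4.6, scipy 1.17.1, pandas 2.3.3, anndata 0.12.19, scikit-learn 1.9.0 and matplotlib 3.10.9.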

Additional observations from a re-analysis of the deposited data

How the results depend on the processing

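Of 413 ratios of single members recomputed under the alternatives, 375 stayed within the main interval, 36 moved beyond it and 2 that were past 1.5-fold turned direction. Of 66 counts of members past 1.5-fold, 57 stayed within 1.5 times of the main count. The turned ratios, dpp42 over dpc16 in keratinocyte-like cells with each cell thinned to 1000 UMIs, were 1.01 for Srxn1 and 0.95 for Txnrd1. In keratinocyte-like cells the count for dpc16 over NP was 5 in place of 3 with no minimum level, and for dpp42 over NP it was 0 in place of 1 with at most 5% mitochondrial UMIs or with a mean over cells, and 2 with no minimum level. In fibroblast-like cells the count for dpp42 over NP was 1 in place of 3 without clusters 2 and 22, an alternative chosen after seeing the data, and for dpp42 over dpc16 it was 5 in place of 3 with at most 5% mitochondrial UMIs, with thinning, at resolution 2 and with shared clusters weighted equally. The cause was not tested.

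Median-of-ratios scaling shifted dpp42 over dpc16 by -0.17 (log2) in keratinocyte-like and -0.35 in fibroblast-like cells. Under it Prdx1 went to 0.946 in place of 1.06 and to 0.807 in place of 1.03, and Gclm in fibroblast-like cells to 0.835 in place of 1.07. For dpc16 over NP the shift was 0.13 and 0.14, with Txnrd1 in keratinocyte-like cells at 0.674, and at 0.669 with resolution 2. Hmox1 in keratinocyte-like cells was 0.888 for dpp42 over NP and 0.449 for dpp42 over dpc16 with at most 5% mitochondrial UMIs. Thinning brought it to 0.713 for dpp42 over NP, and brought Srxn1 and Txnrd1 in fibroblast-like cells of dpc16 over NP to 0.244 and 0.354. Txnrd1 in fibroblast-like cells of dpp42 over NP was 0.648 with thinning and 0.531 with shared clusters weighted equally. No paired analysis was possible because each stage has 1 library. Counts of 7 and 6 UMIs for Hmox1 and Gdf15 in dpp42 fibroblast-like cells limit how closely those levels are known.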
